A study of Mus musculus with 6 samples.

Results

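Forkhead transcription factors bind DNA through a shared winged-helix domain and are sorted by sequence into lettered classes. Class O members are put out of the nucleus when insulin-type signals activate AKT, class F members and Foxl1 respond to hedgehog signals in gut and lung mesenchyme, and Foxm1 drives genes of late cell division. In the ovary the family is best known through Foxl2, which keeps granulosa cells female, Foxo1, which acts in granulosa cells, and Foxo3, which holds resting oocytes dormant. The genes examined were all those of the form Fox, letter, number in the array annotation, taken from probe sets with that single gene symbol. This gave 37 genes with 82 probe sets, of 18193 genes and 45037 probe sets on the array without controls.

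RNA came from cells sorted by tdTomato fluorescence out of the ovaries of female mice of strain 129S6/SvEvTac at 2 months of age, all carrying Gli1-CreERT2, a tamoxifen-dependent Cre under the control of Gli1, and Rosa-LSL-tdTomato, a reporter that a Cre event switches on for good. Gli1 is a transcription factor that hedgehog signalling induces. The mesonephros-derived group (Mesonephros_theca, 3 arrays) received tamoxifen before birth, in doses at E12.5, then E14.5, then E16.5. For the ovary-derived group (Ovary_theca, 3 arrays) the nursing mother was given tamoxifen on days 1 to 3 after birth. The label therefore marks cells that expressed Gli1 in that window and their descendants, and origin and time of tamoxifen cannot be told apart here. The sources used here do not say whether the samples of a group came from separate animals, so the p-values speak of the variation among these particular samples, which could be technical.

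The values are linear probe set signals made with MAS5, scaled by the authors to a common level. A signal of 99.4, the 40th percentile over all probe sets, served as the floor. Where a gene had several probe sets, the brightest on average stood for it, and a gene entered the comparison where that probe set's mean log2 value was at or above the floor. Log2 changes are mesonephros-derived minus ovary-derived on the scale log2(signal + 16), which understates the change of dim genes. The 14 theca and stroma markers on the array, among them Cyp17a1 and Pdgfra, all stood above the floor on all 6 arrays. Cyp17a1, the androgen-forming enzyme of theca cells, read 3346, 10577 and 8689 in mesonephros-derived replicates 1, 2 and 3, and 1413, 1304 and 619 in the ovary-derived ones. Mesonephros-derived arrays were the more variable: they correlated with each other at 0.844 to 0.896, against 0.963 to 0.973 among ovary-derived arrays and 0.871 to 0.95 between groups. RNA spikes that enter before amplification read 14.96, 14.2 and 2.43 times the ovary-derived mean on mesonephros-derived replicates 1, 2 and 3 and 0.683 to 1.76 times on the ovary-derived arrays. For Gapdh, whose probe sets near the 3′ and the 5′ end report on RNA quality, the ratio between these ends was 5.29, 3.48 and 2.63 on mesonephros-derived replicates 1, 2 and 3 and 1.94 to 2.86 on the ovary-derived arrays, while that of Actb was 0.887 to 0.929 against 0.920 to 1.01. Endothelial and macrophage markers also differed between single arrays, and those values are given with Foxf1.

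Of the 37 forkhead genes, 15 lay above the floor on all 6 arrays (40.5%, against 53.3% of all 18193 genes), 14 on 1 to 5 arrays and 8 on none. The 15 were Foxj2, Foxj3, Foxk1, Foxk2, Foxl2, Foxm1, Foxn2, Foxn3, Foxo1, Foxo3, Foxo4, Foxp1, Foxp2, Foxp4 and Foxs1. They include the 3 class O genes on the array, both class K genes and all class P genes other than Foxp3. Another 5 genes, Foxa3, Foxc1, Foxf1, Foxl1 and Foxp3, had a mean past the floor with single arrays below it, so 20 genes entered the comparison. Signals of different probe sets are not set against each other, because probe sets differ in how brightly they report a transcript.

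**Figure D1:**
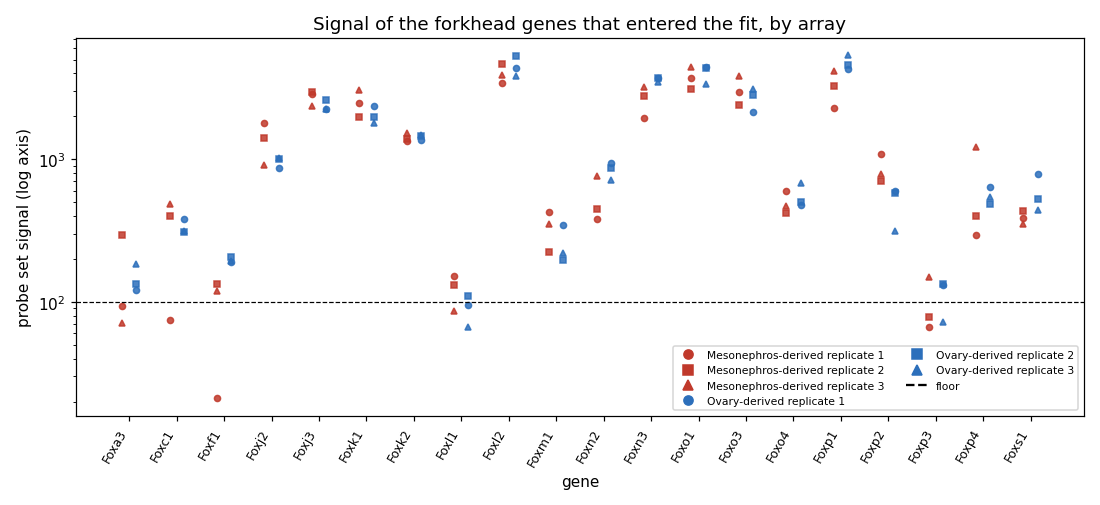
Signal of each of the 20 forkhead genes that entered the comparison (log axis, 1 probe set per gene), with mesonephros-derived arrays in red and ovary-derived arrays in blue, the marker shape giving the replicate and the dashed line the floor of 99.4. Red points spread more widely than blue ones for most genes, and Foxf1 and Foxc1 have 1 red point each, replicate 1, far below the rest.

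No forkhead gene passed the threshold of a limma adjusted p of 0.05 (0 of 20), with 1 gene higher (Foxp2) and 2 lower (Foxp1 and Foxn3) at an unadjusted p under 0.05. Over all 11703 genes tested, 0.0427% passed the adjusted threshold, and 6.46% were higher and 7.22% lower at the unadjusted one. The smallest adjusted p of the family was 0.346. Of the 20 genes 7 were higher and 13 lower in mesonephros-derived cells (65.0% lower, against 56.5% of all genes), and the median log2 change was −0.14, against −0.08 for all genes. After quantile normalization or median centring 11 of the 20 were lower. The groups did not overlap for 1 gene on the higher side and 4 on the lower side, where the background was 9.56% and 12.6%. The spread between replicates was larger in mesonephros-derived cells for 16 of the 20 genes (80.0%, against 83.1% of all genes).

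**Figure D2:**
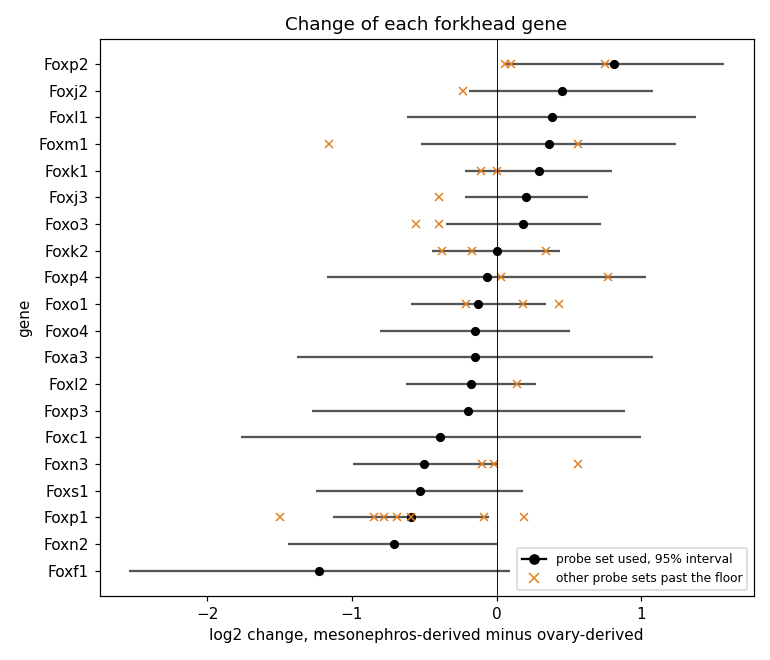
Log2 change of each gene, mesonephros-derived minus ovary-derived (black points, with 95% intervals from limma), and of its other probe sets past the floor (orange crosses). Only the intervals of Foxp1, Foxn3 and Foxp2 leave out 0, and for 11 of the 12 genes with several probe sets past the floor the values lie on both sides of 0.

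Foxp1, a class P repressor that works in lymphocytes, heart and lung, differed on more probe sets than any other member. Its brightest probe set read 2278, 3275 and 4158 in mesonephros-derived replicates 1, 2 and 3, and 4318, 4565 and 5380 in the ovary-derived ones. All 3 mesonephros-derived arrays lay below all 3 ovary-derived arrays. The log2 change was −0.59 ± 0.24 (SE; 95% interval −1.13 to −0.05), 1.5-fold lower, with a limma adjusted p of 0.346. All 8 of its probe sets passed the floor, of which 7 were lower and 1 higher, and 5 did not overlap between the groups, all on the lower side. Without overlap were 21.3% of all probe sets past the floor, and the 8 probe sets report 1 gene, so they are no independent repeats. The widest difference was on 1435221_at, at 125, 327 and 277 against 676, 601 and 728. There limma gave a log2 change of −1.50 ± 0.39 (SE) and an adjusted p of 0.258 over the 27022 probe sets past the floor, of which 0.0148% passed the threshold. The probe set on the other side of 0, 1438802_at, read 476, 545 and 631 against 343, 508 and 628 and overlapped. Without mesonephros-derived replicate 1, the array with its lowest signal, the log2 change of the gene was −0.36, and with the RNA spike level as a covariate it was −0.14. Foxp1 deviated from the ovary-derived mean by −1.05, −0.53 and −0.19 on mesonephros-derived replicates 1, 2 and 3, lowest where the Gapdh ratio was highest. On ovary-derived replicates 1, 2 and 3 it deviated by −0.13, −0.05 and 0.18. There the Gapdh ratios were 1.94, 2.39 and 2.86, so it was highest where the ratio was highest. The part of RNA quality in its values was not tested.

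Foxp1 has 3 gene starts in RefSeq, which are shown because its probe sets disagree in size and it is the member with the most probe sets past the floor. The probe sets were not assigned to transcripts here. Each window runs from 250 bases before to 50 after the start, 5′ to 3′ on the gene's strand, on the build GRCm38.p6. Capitals mark matches to the forkhead motifs TGTTTAC and TGTTTAT on either strand (GTAAACA and ATAAACA on the other).
Foxp1 start 1, chr6:99028249-99028548, minus strand: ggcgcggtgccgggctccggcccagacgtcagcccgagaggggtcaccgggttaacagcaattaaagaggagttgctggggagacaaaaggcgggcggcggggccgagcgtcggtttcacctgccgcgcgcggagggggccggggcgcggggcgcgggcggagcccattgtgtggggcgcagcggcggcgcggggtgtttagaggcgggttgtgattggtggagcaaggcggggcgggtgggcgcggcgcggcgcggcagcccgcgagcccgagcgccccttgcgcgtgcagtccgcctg
Foxp1 start 2, chr6:99266466-99266765, minus strand: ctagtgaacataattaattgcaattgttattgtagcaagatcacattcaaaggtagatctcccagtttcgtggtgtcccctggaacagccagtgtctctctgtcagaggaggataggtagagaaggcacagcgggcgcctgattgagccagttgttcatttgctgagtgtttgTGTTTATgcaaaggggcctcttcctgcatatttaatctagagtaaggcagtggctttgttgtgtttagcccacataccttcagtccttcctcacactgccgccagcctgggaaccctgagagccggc
Foxp1 start 3, chr6:99520944-99521243, minus strand: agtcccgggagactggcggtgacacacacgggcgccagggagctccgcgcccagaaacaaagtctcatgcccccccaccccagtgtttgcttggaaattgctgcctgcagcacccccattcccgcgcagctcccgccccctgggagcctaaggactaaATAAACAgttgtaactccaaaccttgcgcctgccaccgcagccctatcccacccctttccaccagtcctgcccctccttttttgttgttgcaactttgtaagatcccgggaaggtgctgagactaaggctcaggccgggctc
The window of the second start held 1 match, TGTTTAT at position −77 from the start, that of the third held ATAAACA at −92, and that of the first held none. The GC content of the windows was 75.3%, 48.7% and 60.3% in that order. Of all 32851 promoter windows of this length, 4.6% held TGTTTAT or its complement and 3.65% held TGTTTAC or its complement. RefSeq windows were matched for 24 of the 37 forkhead genes (29 windows). TGTTTAT or its complement lay in 3 of these, 2 of Foxp1 and 1 of Foxp3, and TGTTTAC or its complement in 1, that of Foxa1. The GLI motif GACCACCCA, searched on both strands because the label rests on hedgehog signalling, lay in 0 of the 29 and in 0.253% of all windows.

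Foxp2, the class P relative that is known from speech circuits and lung, stood on the other side. Its brightest probe set read 1092, 708 and 793 in mesonephros-derived replicates 1, 2 and 3, and 600, 578 and 312 in ovary-derived ones. Every mesonephros-derived array lay above every ovary-derived one. The log2 change was 0.81 ± 0.33 (SE; 95% interval 0.06 to 1.57), 1.76-fold higher, with a limma adjusted p of 0.351. All 4 probe sets past the floor were higher, from 0.06 to 0.81, and only the brightest of the 4 did not overlap. Foxp2 was the 1 gene of 12 with several such probe sets whose probe sets all had the same sign (8.33%, against 49.7% of 5936 genes on the array). The 12 genes had 2 to 8 such probe sets each. The 5936 genes were not matched to them on this number, so the shares are not like for like. Without ovary-derived replicate 3, the lowest array, the log2 change of Foxp2 was 0.52. Whether Foxp1 and Foxp2 differ from each other in their change was not tested.

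Foxp4, the remaining class P gene expressed throughout, showed what a single array can do to a mean. It read 292, 399 and 1215 against 640, 482 and 541, so mesonephros-derived replicates 1 and 2 lay below and replicate 3 above all ovary-derived arrays. The log2 change was −0.07 ± 0.48 (SE), and −0.66 without replicate 3 and 0.33 without replicate 1. Its probe set 1431437_at read 547, 545 and 338 against 221, 291 and 297, with no overlap and a log2 change of 0.77 ± 0.35. Foxp3, the factor of regulatory T cells, read 66.9, 78.5 and 149 against 131, 134 and 72.6, on both sides of the floor in each group. Of the 13 lymphoid markers on the array 8 lay below the floor on all 6 arrays, the T cell receptor chains Cd3e, Cd3g and Cd3d among them. The others passed the floor on some arrays, Ptprc and Cd8a on 3, Cd4 on 2, and Il2ra and Cd79a on 1. Il2ra read 598 on mesonephros-derived replicate 1 and Ptprc 644 on mesonephros-derived replicate 2. None of the 13 exceeded the floor on all 6, and their summed signal was 540 to 1432 against 474 to 858.

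**Figure D3:**
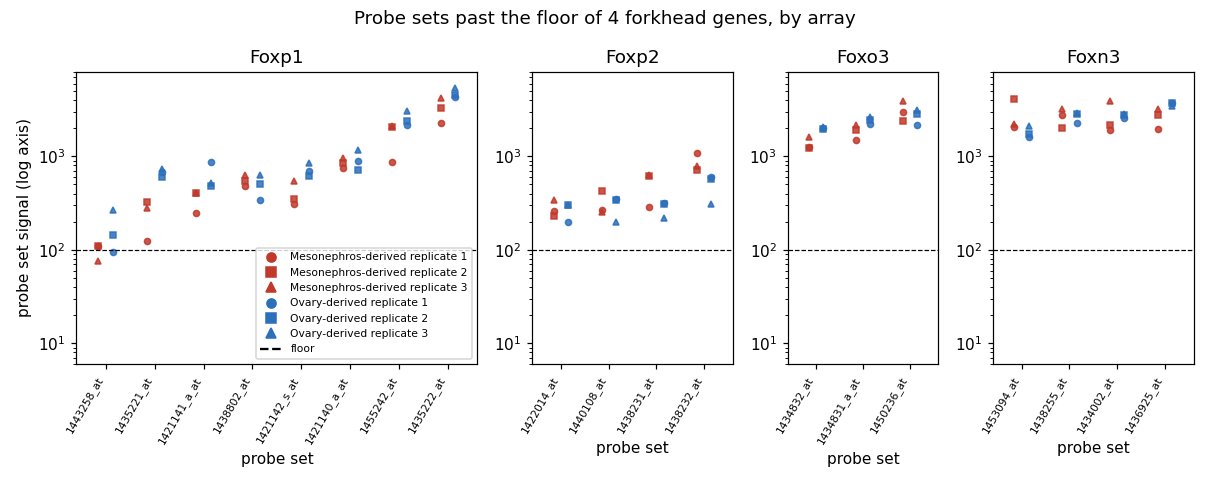
Signal of every probe set past the floor (log axis) of Foxp1 (8 probe sets), Foxp2 (4), Foxo3 (3) and Foxn3 (4), by array, with the dashed line at the floor. Red points (mesonephros-derived) lie below blue points (ovary-derived) without overlap on 5 probe sets of Foxp1, 2 of Foxo3 and 1 of Foxn3, and above them on 1 of Foxp2.

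The class O genes Foxo1, Foxo3 and Foxo4, the targets of AKT, were all above the floor on every array. Foxo1 read 3697, 3092 and 4414 in mesonephros-derived cells and 4449, 4349 and 3394 in ovary-derived cells. The groups overlapped, and the log2 change was −0.13 ± 0.20 (SE; 95% interval −0.59 to 0.34). Its 4 probe sets ran from −0.21 to 0.43, and the sign turned with the mean of the probe sets (0.07), so no direction is given. Foxo4 read 601, 417 and 473 against 480, 504 and 676, with a log2 change of −0.15 ± 0.29 and overlapping groups.

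For Foxo3 the result depended on the probe set. The brightest, 1450236_at, read 2982, 2387 and 3861 against 2138, 2800 and 3119, with overlap and a log2 change of 0.18 ± 0.24 (SE). On 1434832_at the signals were 1271, 1225 and 1628 against 2022, 1981 and 2072, and on 1434831_a_at 1491, 1925 and 2151 against 2221, 2439 and 2638. On both of these all mesonephros-derived arrays lay below all ovary-derived ones. Their log2 changes were −0.56 ± 0.20 and −0.40 ± 0.21, with limma adjusted p-values of 0.335 and 0.442 over all probe sets past the floor. With all 3 averaged the log2 change was −0.26. Oocyte transcripts, in which Foxo3 has its best known ovarian role, were checked with 13 markers. Of these 8, Zp3, Gdf9 and Ddx4 among them, were below the floor on every array, whereas Sohlh1 was above it on all 6, at 119 to 230, and Nlrp5 on 4, at up to 370. Nobox read 59.4, 4.04 and 51.2 against 175, 98.8 and 156, lower without overlap. On the other side Dppa3 read 105, 79.9 and 88.6 against 37.1, 38.3 and 28.0. Figla read 120, 66.2 and 59.7 against 43.1, 15.6 and 56.1, and it and Dppa3 were higher without overlap. The summed signal of the 13 was 612 to 1055 against 676 to 716.

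The genes that control class O proteins, a list of PI3K, AKT, 14-3-3 and receptor genes, had 14 members higher and 10 lower of 24 tested, with a median log2 change of 0.01 (−0.08 for all genes) and 0 past the adjusted threshold in limma, with 2 higher and 2 lower at an unadjusted p under 0.05. The receptor Igf1r read 1646, 860 and 1711 against 2841, 3191 and 3541, a log2 change of −1.23 ± 0.28 (limma adjusted p = 0.207). Ywhae, a 14-3-3 protein of the kind that holds phosphorylated class O factors in the cytoplasm, stood at 0.70 ± 0.21, and Mdm2, a ubiquitin ligase, at 0.65 ± 0.27. None of these 3 passed. Genes that class O factors switch on or off had 9 members higher and 18 lower of 27, with a median of −0.13 and 0 past the adjusted threshold, with 0 higher and 2 lower at the unadjusted one. Sesn3, a stress-responsive inhibitor of growth signalling, read 731, 584 and 869 against 1318, 1341 and 1272, a log2 change of −0.85 ± 0.24 (limma adjusted p = 0.246). Gadd45b stood at −0.91 ± 0.32 and Tnfsf10 at −1.52 ± 0.68. The lists share Insr and Irs2, and the second holds Foxo1 itself.

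Foxf1, the class F gene that hedgehog signals induce in mesenchyme, had the lowest log2 change of the 20 genes. It read 21.0, 133 and 120 in mesonephros-derived replicates 1, 2 and 3, against 191, 205 and 193. All 3 mesonephros-derived arrays lay below the ovary-derived ones, and replicate 1 lay below the floor. The log2 change was −1.23 ± 0.58 (SE; 95% interval −2.54 to 0.09; limma adjusted p = 0.388), −0.58 without replicate 1 and −0.36 with the RNA spike covariate. A dimmer probe set, below the floor on average, read 40.5, 224 and 32.1 against 113, 109 and 95.6 and overlapped. On replicate 1, where Foxf1 deviated from the ovary-derived mean by −2.52 on the log2 scale, the mean deviation of 15 endothelial markers was −1.72 and that of 11 macrophage markers −2.52. On replicates 2 and 3 Foxf1 deviated by −0.51 and −0.65, the endothelial mean by 0.12 and −1.22, and the macrophage mean by 0.68 and −0.55.

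The summed signal of the 16 endothelial markers on the array was 5406 to 13238 in mesonephros-derived and 8946 to 13806 in ovary-derived cells, with 13 of 15 tested members lower, 0 past the adjusted threshold in limma (4 at an unadjusted p under 0.05) and 0 below the floor on every array. The markers did not share 1 order of arrays. Kdr read 9.91, 460 and 90.3 against 1106, 1139 and 394, and Pecam1 read 44.4, 278 and 36.9 against 580, 473 and 178. Emcn, highest on replicate 1, read 1973, 859 and 1868 against 1575, 1528 and 1094. These 3 overlapped between the groups. Sox18 read 350, 922 and 522 against 2140, 1798 and 1090, and Robo4 51.3, 96.6 and 63.4 against 337, 359 and 149. Sox18 and Robo4 were the 2 tested members without overlap, both lower. For the 13 macrophage markers the sum was 1788 to 16374 against 6618 to 10304, with 10 of 11 tested members lower. Of these 0 passed the adjusted threshold (2 the unadjusted one), and Cd14 and Itgam were below the floor on every array. Of the tested members 3 did not overlap, all lower. Csf1r and Mrc1 were among them, at 2.81, 615 and 461 against 1300, 1583 and 1060, and 62.9, 184 and 131 against 315, 598 and 384. The part of endothelial cells and macrophages in the values of Foxf1, and in those of Foxc1 and Foxc2, was not tested. In sorted cells, fewer cells of a type and less RNA per cell cannot be told apart.

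The other hedgehog-responsive forkhead genes stood near the floor. Foxf2 read at most 51.0 on 5 of the 6 arrays and 127 on mesonephros-derived replicate 1. Foxl1 read 153, 131 and 86.3 against 94.4, 110 and 67.1, a log2 change of 0.38 ± 0.44 with overlap. The hedgehog list around them had 5 members higher and 13 lower of 18 tested, a median of −0.30 and 0 past the adjusted threshold, with 1 higher and 2 lower at the unadjusted one in limma. Gli1 itself read 133, 579 and 415 against 703, 560 and 487. As with Foxf1, replicate 1 was the lowest array, but replicate 2 of Gli1 overlapped the ovary-derived range. Ptch1, the hedgehog receptor, read 14646, 8220 and 8926 against 11036, 11419 and 10068 and was highest on that same replicate 1. Sufu, an inhibitor of the GLI factors, stood at −0.91 ± 0.27 (limma adjusted p = 0.263), Nkx2-3 at 1.48 ± 0.58 and Cdon, a co-receptor, at −0.97 ± 0.41.

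Foxc1 and Foxc2 are class C genes of vessels and mesenchyme. Foxc1 read 74.2, 403 and 488 against 381, 310 and 314, a log2 change of −0.39 ± 0.61 that was 0.40 without replicate 1. Replicates 2 and 3 lay above all ovary-derived arrays, so no direction is given. A second probe set of Foxc1 read 6.59, 8.51 and 4.29 against 58.6, 109 and 105, without overlap but with a mean below the floor. With both probe sets averaged the log2 change was −1.30, with a limma adjusted p of 0.283. Foxc2 read 8.18, 5.57 and 89.2 against 99.8, 133 and 87.7. Mesonephros-derived replicates 1 and 2 were low and replicate 3 lay within the ovary-derived range. All 3 of its mesonephros-derived arrays lay below the floor, and with the ovary-derived arrays near it the bound was at least 1.05-fold lower.

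Foxs1, a class S gene reported in pericytes, was the remaining gene without overlap on the lower side beside Foxn3. It read 388, 431 and 350 against 789, 528 and 439. The lowest ovary-derived array lay just above the highest mesonephros-derived one. The log2 change was −0.53 ± 0.32 (SE; 95% interval −1.25 to 0.18; limma adjusted p = 0.474), and −0.30 without ovary-derived replicate 1. Of 17 smooth muscle and pericyte markers tested 16 were higher, 2 of them past the adjusted threshold (Myh11 and Tagln), and their summed signal was 97581 to 126625 against 49572 to 60787. Myh11, the smooth muscle myosin, read 12874, 10949 and 11814 against 2577, 3437 and 3461. The largest log2 changes were those of contractile genes, Myh11 at 1.92 ± 0.18, Cnn1 at 1.90 ± 0.33 and Actg2 at 1.58 ± 0.21. Among pericyte members of the list, Rgs5 stood at 0.83 ± 0.21, Mcam at 0.67 ± 0.28, Notch3 at 0.49 ± 0.28 and Pdgfrb at 0.28 ± 0.25. Cspg4 stood at 0.07 ± 0.32, and Kcnj8 and Abcc9 at 0.03 ± 0.41 and 0.03 ± 0.26. Higd1b, at −1.28 ± 0.66, was the 1 lower member of the 17, on the same side as Foxs1. None of these pericyte members passed. The part of these cells in the Foxs1 values was not tested.

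In class N, Foxn2 and Foxn3, the latter known as a checkpoint suppressor, were above the floor throughout. Foxn3 read 1936, 2756 and 3189 against 3732, 3692 and 3484. The groups did not overlap, and the log2 change was −0.50 ± 0.22 (SE; 95% interval from −0.99 to just under 0; limma adjusted p = 0.362). Its other 3 probe sets past the floor overlapped and stood at −0.10, −0.02 and 0.56. With all 4 averaged the log2 change was −0.02, and without mesonephros-derived replicate 1 it was −0.29. Its deviations, −0.90, −0.40 and −0.19 on mesonephros-derived replicates 1, 2 and 3, were also lowest where the Gapdh ratio was highest. On the ovary-derived replicates they were 0.04, 0.02 and −0.06, all close to the mean. Other members ran both ways on mesonephros-derived replicates 1, 2 and 3. Foxc1, Foxk2, Foxn2, Foxp3 and Foxp4 rose from replicate 1 to 3, as Foxn3 did. Foxj2 fell, at 0.89, 0.53 and −0.08, and so did Foxl1, at 0.69, 0.48 and −0.04. The part of RNA quality in these values was not tested. Foxn2 read 379, 448 and 763 against 948, 873 and 717. Replicate 3 of the mesonephros-derived group lay within the ovary-derived range, and the log2 change was −0.71 ± 0.32 (limma adjusted p = 0.368), −1.0 without that replicate and 0.26 with the spike covariate.

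Foxl2, which maintains granulosa cell identity, was well above the floor on every array of these sorted cells. It read 3434, 4626 and 3912 in mesonephros-derived and 4372, 5330 and 3858 in ovary-derived cells. The groups overlapped, and the log2 change was −0.18 ± 0.20 (SE; 95% interval −0.63 to 0.27; limma adjusted p = 0.712), with a second probe set at 0.14 ± 0.32. Among 11 granulosa markers on the array, 6 were above the floor on all 6 arrays, Fshr, the receptor for follicle-stimulating hormone, was below it on all, and the summed signal was 3595 to 5019 against 4263 to 4626. Of 7 tested, 3 were higher and 4 lower, with 0 past the adjusted threshold and 0 at an unadjusted p under 0.05. Kitl, the ligand of KIT, read 173, 536 and 632 against 727, 696 and 890, and did not overlap. Amhr2, the receptor for anti-Müllerian hormone, read 36.4, 581 and 151 against 595, 407 and 689. Nr5a2, with a mean below the floor, read 16.2, 66.3 and 15.6 against 244, 185 and 95.3, at least 1.56-fold lower without overlap. On the higher side Amh, the hormone itself, read 511, 234 and 33.4 against 20.7, 28.1 and 34.7, at least 1.62-fold higher with replicate 3 within the ovary-derived range, and Inhba, an activin subunit, stood at 0.72 ± 0.50. Of 5 luteal markers tested 4 were higher and 1 lower, with 0 past the adjusted threshold in limma and 1, Sfrp4 at 1.56 ± 0.39, at the unadjusted one. The summed signal of the 8 on the array was 17350 to 23647 against 12618 to 19633, most of it from Hsd3b1, at 13295 to 18914 against 9471 to 16815. Among those not tested, Akr1c18 read 117, 319 and 73.8 against 4.27, 25.3 and 7.38, at least 1.38-fold higher. Ptgfr read 109, 258 and 89.8 against 58.0, 70.0 and 60.1, at least 1.33-fold higher. Neither overlapped between the groups, and Onecut2 was below the floor on every array. The part of granulosa and luteal cells in the values of Foxl2 and Foxo1 was not tested.

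Foxm1, the driver of mitotic genes, read 426, 222 and 349 against 345, 196 and 220 on its brightest probe set. The groups overlapped, and the log2 change was 0.36 ± 0.39 (SE). The probe sets disagreed: 1448834_at read 463, 8.02 and 279 against 447, 273 and 268, a log2 change of −1.16 ± 0.96, with replicate 2 nearly at 0. FOXM1 target genes had 3 members higher and 17 lower of 20 tested, a median of −0.67 and 0 past the adjusted threshold in limma, with 0 higher and 5 lower at the unadjusted one. Their mean deviation was −0.03, −1.42 and −0.37 on replicates 1, 2 and 3 of the mesonephros-derived group and −0.26 to 0.13 on the ovary-derived arrays, so replicate 2 was the lowest for these targets as for 1448834_at. Cdc20, an activator of the anaphase-promoting complex, read 424, 228 and 593 against 937, 678 and 1080, without overlap, a log2 change of −1.16 ± 0.38 (limma adjusted p = 0.287). The mitotic kinase Aurka stood at −1.37 ± 0.47 and Birc5, which acts at the centromere, at −1.18 ± 0.41, and neither passed.

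**Figure D4:**
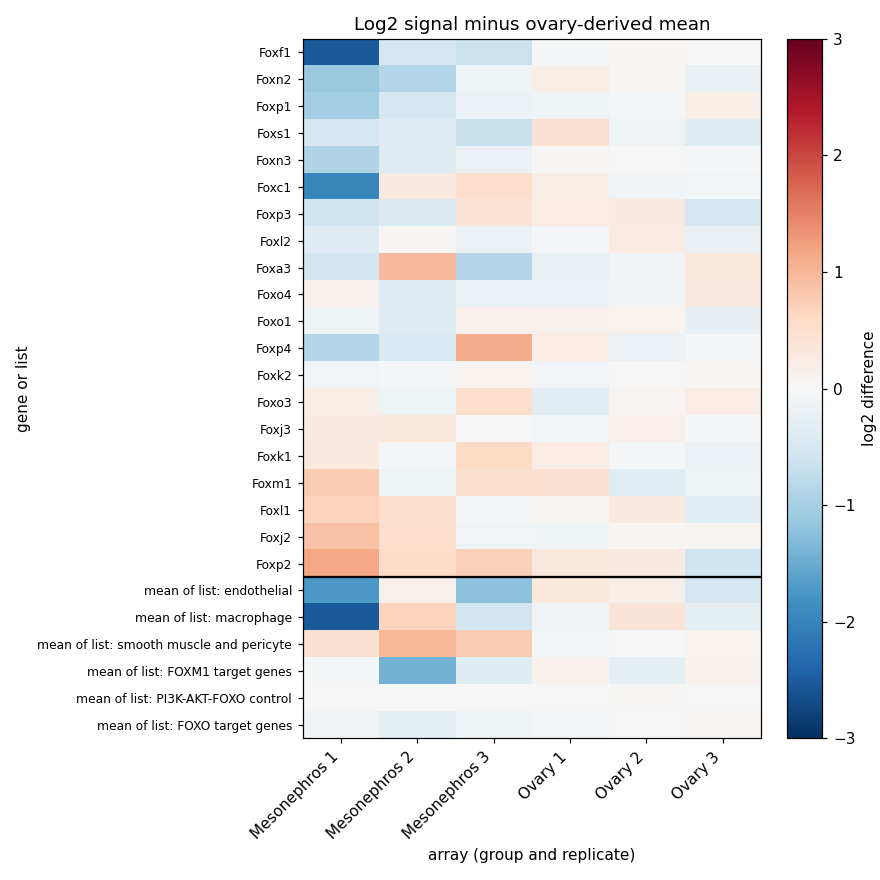
Log2 signal on each array minus the ovary-derived mean, for the 20 genes (upper rows, ordered by their change) and for the mean of 6 gene lists (lower rows), with blue for lower and red for higher. Of the genes, Foxf1 and Foxc1 have the deepest blue on mesonephros-derived replicate 1, where the endothelial and macrophage lists are also lowest. Foxn2, Foxp1, Foxn3, Foxp4, Foxp3 and Foxl2 are lowest on that array too, while the FOXM1 targets are lowest on replicate 2.

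Classes J and K hold broadly expressed members. Foxj2 read 1796, 1403 and 910 against 875, 1007 and 1018, a log2 change of 0.45 ± 0.28 with replicate 3 inside the ovary-derived range, and 0.23 without replicate 1. Its other probe set stood at −0.23 ± 0.26. Foxj3 read 2875, 2947 and 2379 against 2233, 2613 and 2264, a log2 change of 0.20 ± 0.19. Foxk1, which with Foxk2 represses autophagy genes, read 2499, 1983 and 3057 against 2363, 1965 and 1789, a log2 change of 0.29 ± 0.22. All 3 genes overlapped between the groups. Foxk2 varied least on the probe set used: it read 1342, 1396 and 1539 against 1354, 1450 and 1479, with a 95% interval of −0.45 to 0.44 around 0. Its other probe sets past the floor stood at −0.38 ± 0.27, 0.34 ± 0.27 and −0.17 ± 0.60, all with overlap. Among the cofactors of forkhead proteins, such as the BAP1 and SIN3 complexes, 7 were higher and 15 lower of 22, with a median of −0.09 and 0 past the adjusted threshold, with 2 higher and 1 lower at the unadjusted one in limma. Mbd6 stood at 0.63 ± 0.22, Smad3 at −0.50 ± 0.18 and Ctnnb1 at 0.47 ± 0.19.

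The 17 genes with a mean below the floor did not enter the comparison. Foxa1, Foxa2, Foxb1, Foxd1, Foxd4, Foxe3, Foxi1 and Foxj1 lay below it on every array. Foxj1, the master regulator of motile cilia, read 2.81 to 9.52, and 6 of 13 ciliated cell markers, Dynlrb2 and Hydin among them, were also below the floor on every array, while Rfx3 and Tppp3 were above it on every array. The summed signal of the 13 was 1705 to 1898 against 2157 to 2239, with the largest share from Rfx3, at 873, 699 and 929 against 1455, 1357 and 1200. Foxb1 read 17.5 to 61.0, Foxd1 2.40 to 38.5, Foxd4 16.8 to 45.1 and Foxi1 1.72 to 21.7. Foxa1 and Foxa2, regulators of endoderm and of reproductive tract epithelium, read 1.85 to 20.0 and 6.21 to 42.3. Of 13 surface and tubule epithelium markers 7, with Epcam, Cdh1 and Pax8 among them, were below the floor on every array, with a summed signal of 332 to 581 against 506 to 607. The remaining 9 exceeded it on 1 array (Foxd3, Foxf2, Foxh1 and Foxn1) or 2 (Foxb2, Foxc2, Foxd2, Foxn4 and Foxq1). Foxd2 read 24.8, 198 and 51.9 against 74.4, 151 and 51.3, Foxn4 92.1, 219 and 48.2 against 47.3, 105 and 52.4, and Foxn1, the thymus epithelium factor, 73.0, 160 and 29.3 against 27.4, 62.8 and 38.1. For all 3, on the probe set used, replicate 2 of the mesonephros-derived group was the highest array, and the groups overlapped. The second Foxn1 probe set, below the floor on every array, read 91.2, 64.1 and 54.9 against 31.9, 30.6 and 50.5, without overlap. Foxh1, a partner of SMAD proteins, was highest on replicate 1 instead, at 207, with 27.5 to 67.9 on the other arrays. Its other probe sets, below the floor on every array, were highest on replicate 2, at 12.2 and 54.1. Foxa3, a liver factor whose mean just passed the floor, read 94.0, 296 and 71.6 against 122, 133 and 183. Its mesonephros-derived arrays lay on both sides of the ovary-derived range, and the log2 change was −0.15 ± 0.54.

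**Figure D5:**
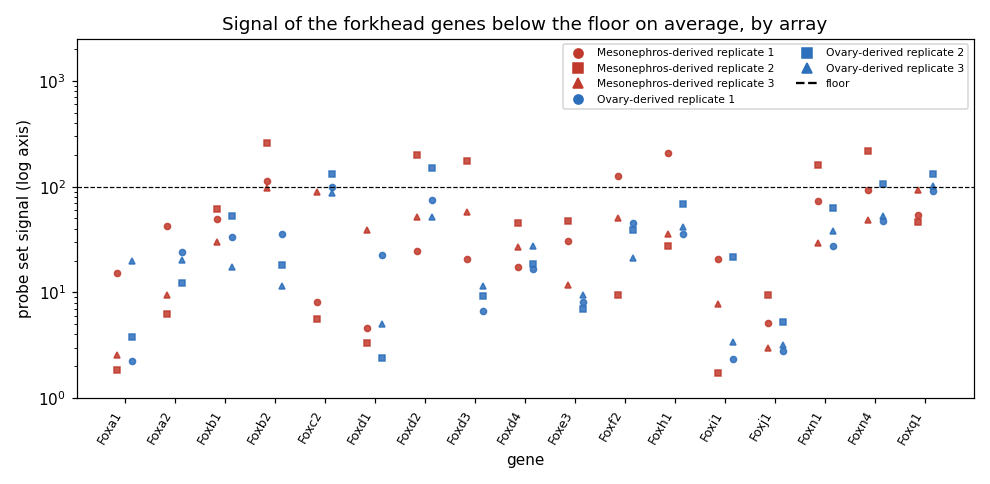
Signal of the 17 forkhead genes whose mean lay below the floor of 99.4 (dashed line), by array (log axis). Foxb2 and Foxd3 have all red points above all blue ones, and no gene exceeds the floor on more than 2 arrays.

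On the probe sets used, Foxb2, Foxd3 and Foxe3 did not overlap between the groups at these low signals. They are named after their values were seen. The share without overlap among all genes below the floor was not counted, so their number is not read as a result. Foxb2 read 114, 257 and 97.7 against 35.3, 18.0 and 11.5, at least 1.38-fold higher given the floor. In the fit without a floor its log2 change was 2.13 ± 0.52, with a limma adjusted p of 0.237, the smallest of the 37 genes there. Foxd3, a factor of neural crest and stem cells, read 20.8, 175 and 58.1 against 6.61, 9.20 and 11.4, and Foxe3, a lens factor, 30.9, 47.8 and 11.7 against 8.04, 6.89 and 9.36. For these 2 the brighter group's mean did not exceed the floor, so no fold is given. Foxq1 read 54.0, 46.5 and 92.7 against 90.7, 131 and 102. The groups overlapped, and ovary-derived replicate 1 also lay below the floor. With the other ovary-derived arrays near it, the bound was at least 1.07-fold lower. Precision is limited throughout by the number of arrays, 3 in each group.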

How the data were processed

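RNA from 6 samples was measured on 1-colour oligonucleotide arrays. The authors deposited 1 linear intensity per probe set and array. The submitters' processing notes name MAS5, with no version or settings in the sources used here. The mean after trimming 2% at each end was 500 on every array, so no further normalization was applied. A set volume of RNA, not a set mass, went into amplification, per the labels' protocols.

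Of 45101 probe sets, 64 controls were left out. Of the rest 34945 had 1 gene symbol, 932 several and 9160 were unnamed here. All 37 forkhead genes matched RefSeq (GRCm38.p6) by gene identifier, with 0 symbols changed. The comparison used limma 3.58.1 (R 4.3.3; lmFit and eBayes with an intensity trend, group as the only factor) over 11703 genes, with Benjamini-Hochberg adjustment at 0.05. The script was tested on simulated data. For a group with no array past the floor, a fold is a bound: the brighter group's mean over, per array, the higher of the floor and the dim signal.

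The members and gene lists were chosen with earlier results of these data known. Every forkhead gene is named, as are up to 3 genes of smallest p per list described and 8 fixed genes. Other named markers were chosen after their values were seen. Same-numbered arrays deviated together with correlations of −0.01 to 0.071, and different-numbered ones with −0.046 to 0.049. Such values, from 3 arrays in each group, cannot settle whether the numbers mark pairs. The main fit treated the arrays as unpaired. Alternatives (pseudocount, floor, normalization, probe set rule, variance model, weights, replicate block, spike covariate, each array left out) kept the probe sets and genes of the main setting unless they concern these.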

Additional observations from a re-analysis of the deposited data

How the results depend on the processing

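No forkhead gene passed a limma adjusted p of 0.05 under any of the 20 alternatives, the one that tested every probe set on its own, chosen after seeing the data, included. The smallest adjusted p of the 20 genes ranged from 0.123 (without mesonephros-derived replicate 3) to 1.00 (spike covariate), and 0 to 5 of them had an unadjusted p under 0.05. Among the 20 genes between 9 (without mesonephros-derived replicate 1) and 13 were lower, or 18 of 37 with no floor and 10 of 16 with a floor at the 60th percentile. Genes above the floor on every array numbered 12 to 17. The replicate number as a block changed no call: 13 genes were lower and 0 passed (smallest adjusted p = 0.379). Over all genes limma made 0 to 129 calls.

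Apart from the alternative that tests each probe set, which gives a gene several directions (probe sets of Foxp1, Foxn3, Foxl2 and Foxk1 lie on both sides of 0), 8 of the 20 genes kept their direction under every alternative in which they were tested. The direction of the others turned as follows, and the cause was not tested. With quantile normalization Foxk2 stood at 0.03 and Foxp4 at 0.02, and with median centring at 0.07 and 0.01. With the mean of all probe sets Foxj3 stood at −0.18, Foxk2 at 0.10, Foxm1 at −0.12, Foxo1 at 0.07, Foxo3 at −0.26 and Foxp4 at 0.24. Without _x_at and _s_at probe sets Foxm1 stood at −1.16 and Foxo1 at 0.18, because other probe sets then represent them. With array weights Foxc1 stood at 0.17, Foxk2 at 0.04 and Foxp4 at 0.58. With the spike covariate Foxc1 stood at 1.03, Foxj2 at −0.38, Foxj3 at −0.05, Foxk2 at 0.11, Foxl1 at −0.00, Foxn2 at 0.26, Foxo1 at 0.40, Foxp3 at 0.98 and Foxp4 at 1.67. With each array left out in turn Foxa3 ranged from −0.71 to 0.21, Foxc1 from −0.85 to 0.40, Foxk2 from −0.06 to 0.04, Foxo1 from −0.25 to 0.00 and Foxp4 from −0.66 to 0.33.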

Other observations

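Foxl2os, the antisense neighbour of Foxl2, carries its own symbol and is no member of the family. It read 11925, 3697 and 5265 in mesonephros-derived replicates 1, 2 and 3 and 4902, 4856 and 5168 in the ovary-derived ones, a difference of 0.30 on the log2 scale with overlap. Mesonephros-derived replicate 1 was its highest array, while Foxl2 itself was lowest there.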
